A study of Mus musculus with 8 samples.

Results

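Mature microRNAs (miRNAs) were measured in the normal footpad skin of mouse embryos at 2 embryonic stages, E16.5 and E17.5 (days after timed mating). The data are the 4 wild-type arrays of a series of 8, taken by their titles, with 2 arrays at each stage. On each array the members are the probes of 1881 mouse miRNAs, with control probes left out, each read as the mean signal of its spots that carried no outlier mark. The other 4 arrays of the series hold footpads of Dicer conditional knockout (cKO) embryos at the same stages, 2 arrays per stage, and enter here as the background against which the wild-type change is read. All groups carried the C57BL6 background, and the labels name no treatment, no Cre driver, no sex and no other allele. Each array held RNA pooled from the footpads of 3 to 5 embryos, so its 2 replicates show the spread between pools and not between embryos, and nothing says whether the pools came from separate litters. The tissue is labelled as dissected footpad skin and not as sorted cells, so that fewer cells of a type and less miRNA per cell cannot be told apart in any value below.

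A miRNA is a short RNA that Dicer releases from a hairpin precursor. It guides an Argonaute protein to messenger RNAs that pair with its seed, bases 2 to 8 from its 5′ end, and lowers their translation or stability, so miRNAs with 1 seed share many predicted targets. In skin, miR-203 restrains the growth of basal keratinocytes as they differentiate and miR-205 is abundant in the basal layer, whereas miR-199a and miR-214 are made together in mesenchyme. Late gestation is the time at which the footpad epidermis stratifies and the eccrine sweat glands form from it.

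The sequences that the results turn on follow, with the seed in capitals, taken from RefSeq (GRCm38.p6), which held a mature sequence for 332 of the 385 miRNAs tested. The first set holds the 4 brightest miRNAs and 5 well-known skin miRNAs among the 15 brightest.
miR-6366: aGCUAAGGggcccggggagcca
miR-3963: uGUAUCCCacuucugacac
miR-3968: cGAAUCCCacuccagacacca
miR-5100: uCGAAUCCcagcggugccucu
miR-199a-3p: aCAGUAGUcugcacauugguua
miR-125b-5p: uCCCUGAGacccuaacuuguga
miR-203-3p: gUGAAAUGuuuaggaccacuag
miR-205-5p: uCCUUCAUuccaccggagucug
let-7a-5p: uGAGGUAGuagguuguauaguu

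The second set holds miRNAs that rose from E16.5 to E17.5, among them 2 with long runs of alternating C and A.
miR-6997-5p: uAACAGGCuggagaggugcaga
miR-467f: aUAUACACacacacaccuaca
miR-466q: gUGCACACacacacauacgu
miR-342-3p: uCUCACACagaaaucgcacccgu
miR-136-5p: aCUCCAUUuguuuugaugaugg
miR-221-3p: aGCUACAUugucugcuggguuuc
let-7b-5p: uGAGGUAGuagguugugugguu

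The third set holds miRNAs called lower at E17.5 after scaling between arrays, with 3 members of the miR-181 family that share a seed.
miR-3063-3p: uGAGGAAUccugaucucucgcc
miR-302c-3p: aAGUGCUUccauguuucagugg
miR-7661-3p: uUGACUCCcaguuucucucugc
miR-433-3p: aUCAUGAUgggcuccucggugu
miR-298-5p: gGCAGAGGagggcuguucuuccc
miR-181b-5p: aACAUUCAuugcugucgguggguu
miR-181c-5p: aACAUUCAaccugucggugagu
miR-181d-5p: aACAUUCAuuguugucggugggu

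The arrays differed in brightness in a way that bears on every stage comparison. Detection here means that over 50% of a probe's usable spots stood well above background, and by this measure 367 and 279 miRNAs were detected on the E16.5 arrays against 384 and 375 on the E17.5 arrays. The 75th percentile of signal, over 474 probes detected on all 8 arrays, was 398 and 284 units at E16.5 and 503 and 521 units at E17.5, so both E17.5 arrays were brighter and E16.5 replicate 2 was the dimmest. Each array was divided by this value, and levels are given as log2 of that scaled signal unless units of signal are named. Levels under a floor of −4.24 were raised to it, where the floor is the typical array's 5th percentile among its detected probes. Across miRNAs, which are not replicates, the paired arrays of a stage had r = 0.998 at E16.5 and 0.999 at E17.5. Each stage and genotype filled its own column of 1 slide, so slide position and stage cannot be told apart. A corner control probe read 428 and 233 units on the E16.5 arrays and 35.2 and 38.1 units on the E17.5 arrays, and its part in the results was not tested.

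The tissue label was read against miRNAs with a known cell type. All 12 miRNAs listed for skin epithelium were measured well enough to be tested, and 8 of 10 for dermal mesenchyme. Skeletal muscle miRNAs (5 of 6), cartilage miRNAs (4 of 4), endothelial miRNAs (2 of 2), red cell miRNAs (3 of 4) and white blood cell miRNAs (5 of 7) were tested too. Of 4 miRNAs of liver and pancreas, none was detected on any wild-type array (0 of 4), and of 6 nerve and glia miRNAs the neuronal miR-9-5p and miR-124-3p were not detected either.

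The abundance ranking describes the order of signal and not of molecules, because brightness depends on the probe as well as on the miRNA. Among 220 miRNAs with more than 1 probe detected on all 4 wild-type arrays, the brightest probe exceeded the dimmest by a median of 1.57-fold and by up to 25.1-fold. For miR-5100 the pair of probes differed by 1 base at the 3′ end, in capitals here, and by 8.06-fold in signal.
13-base probe: agaggcaccgctg
14-base probe: agaggcaccgctgG

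A small group, miR-6366, miR-3963, miR-3968 and miR-5100, carried most of the miRNA signal of wild-type footpad skin. miR-6366 took 44.5% and 46.2% of the summed signal of all mouse miRNAs on the E16.5 arrays and 42.4% and 42.7% on the E17.5 arrays. miR-3963 took 23.2% and 24.4% at E16.5 and 23.1% and 22.6% at E17.5. The E17.5 values of both lay below all their E16.5 values. miR-3968 took 5.09% and 5.10% at E16.5 and 5.26% and 5.48% at E17.5, and miR-5100 took 4.77% and 5.02% against 4.48% and 4.23%. Together the 4 carried up to 80.7% of the signal of an array, and the 5 brightest 78.6% on average, which was 65.0% when background was modelled instead of subtracted. On the cKO arrays the mean shares of miR-6366 and miR-5100 were 45.7% and 5.06%, above their wild-type means of 43.9% and 4.63%.

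Behind these 4 came miRNAs of mesenchyme and epithelium. miR-199a-3p, one of the arms of a mesenchymal hairpin, took 1.61% and 1.25% at E16.5 and 1.66% and 1.56% at E17.5. miR-125b-5p, which is broadly expressed and abundant in skin stem cells, took 1.51% and 1.20% at E16.5 and 1.57% and 1.51% at E17.5. The stages overlapped for miR-199a-3p and touched, to the precision printed, for miR-125b-5p, and E16.5 replicate 2 held the lowest value of each.

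The leading epithelial miRNAs were miR-203-3p and miR-205-5p, eighth and ninth in the order. miR-203-3p took 0.80% and 0.71% at E16.5 and 0.97% and 1.12% at E17.5, and miR-205-5p took 0.79% and 0.74% against 0.97% and 1.07%. Both E17.5 arrays lay above both E16.5 arrays for each of them. On the cKO arrays their mean shares were 0.081% and 0.0847%, against 0.900% and 0.891% in wild type. The rest of the 15 brightest were miR-199a-5p, miR-199b-5p, let-7a-5p, let-7f-5p, miR-26a-5p, miR-130a-3p and let-7c-5p, the last of which restrains growth genes with the rest of its family. Each of these also had both E17.5 shares above both E16.5 shares, so that order is not particular to the epithelial miRNAs. The mesenchymal miR-199b-5p, for example, took 0.731% and 0.580% at E16.5 and 0.798% and 0.799% at E17.5. The 20 brightest miRNAs together held 87.3% of the signal and the 100 brightest 96.1%.

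**Figure D1:**
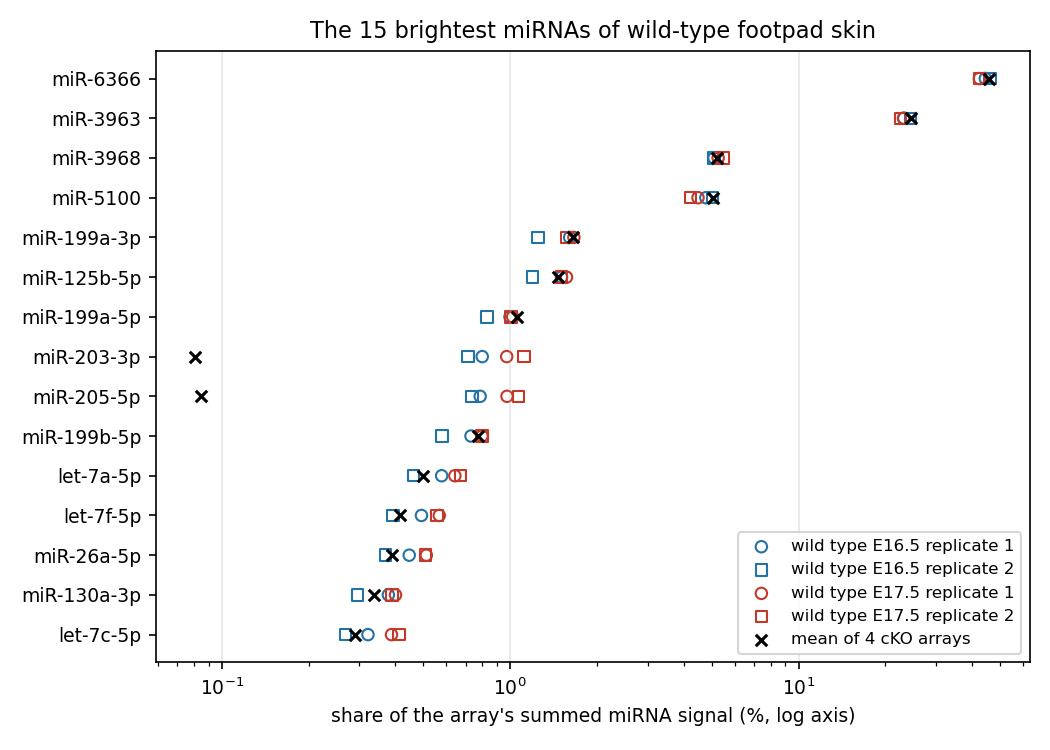
Share of the summed mouse miRNA signal (percent, log axis) of the 15 brightest miRNAs of wild-type footpads, with 1 point for each of the 4 wild-type arrays and a cross for the mean of the 4 cKO arrays. miR-6366 lies above 42% on each wild-type array, and miR-203-3p and miR-205-5p are the members whose cKO mean lies far to the left.

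When these 4 were left out, the remaining signal was spread widely. miR-199a-3p then took 7.15% and 6.47% at E16.5 and 6.73% and 6.25% at E17.5, and miR-203-3p 3.56% and 3.70% against 3.93% and 4.46%. On this scale too, both E17.5 arrays lay above both E16.5 arrays for miR-203-3p, while the stages overlapped for miR-199a-3p.

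The comparison of E17.5 with E16.5 asked which miRNAs of normal footpad skin changed over a day in which the pad's epidermis matures. On the scaled levels most changed little. Of the 385 miRNAs that were detected on both arrays of at least 1 of the 4 groups, 367 (95.3%) had a fitted change within 0.5 of 0 on the log2 scale, and the median size of a change was 0.13. The scaling holds the middle of the changes near 0, and the floor sets some to 0. Without scaling the median change was 0.47. The test (limma, 4 group means over all 8 arrays, Benjamini-Hochberg adjusted p under 0.05) called 16 miRNAs higher at E17.5 (4.16% of those tested) and 41 lower (10.6%), in all 57 (14.8%). The arrays of the 2 stages did not overlap for 73 miRNAs with higher values at E17.5 (19%) and for 159 with lower values (41.3%), in all 232 (60.3%). With 2 arrays against 2 an exact permutation test cannot give a p under 0.333, so the calls rest on the spread shared by all groups, and limma on the 4 wild-type arrays alone gave 0 higher and 5 lower calls, with 110 miRNAs at an unadjusted p under 0.05 against 138 in the fit of all 8.

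**Figure D2:**
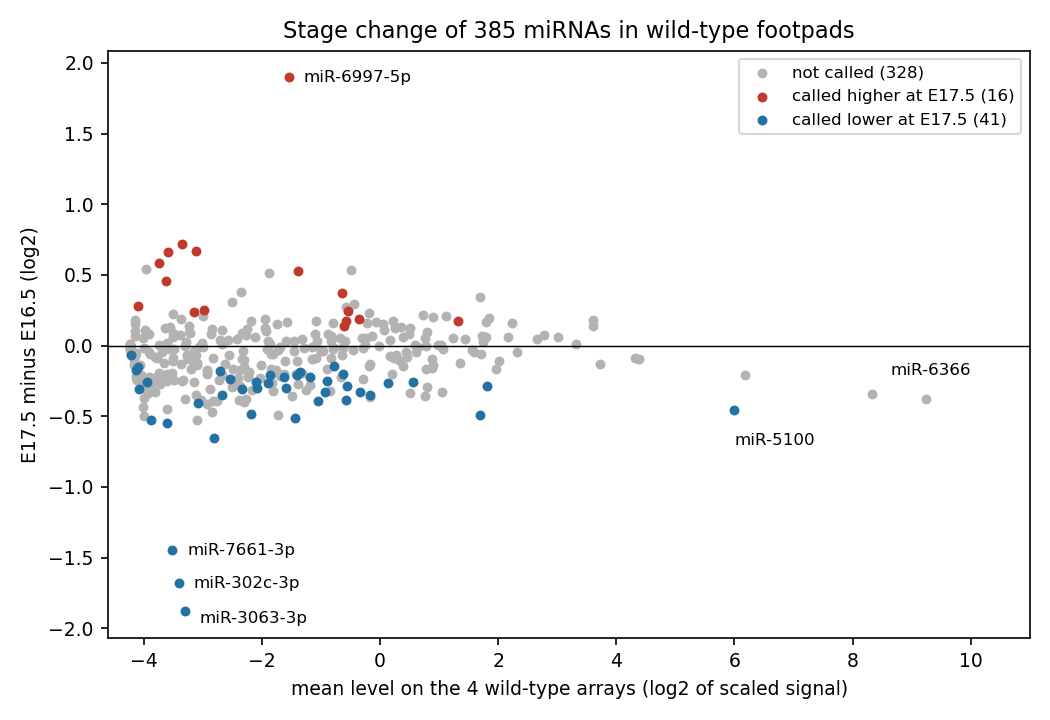
Fitted change from E16.5 to E17.5 in wild type (log2) against mean level on the 4 wild-type arrays (log2 of scaled signal) for the 385 miRNAs tested, with the 16 called higher and 41 called lower in colour. Most points lie within 0.5 of 0, and miR-6997-5p, miR-3063-3p, miR-302c-3p and miR-7661-3p stand apart.

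Which way the balance of calls leaned depended on the scaling. Of the calls made with the 75th percentile of detected probes 28.1% were higher, but without scaling 188 miRNAs were called higher and 4 lower (97.9% higher), since the E17.5 arrays were brighter. The split was 13 and 4 with the 75th percentile of all probes (76.5% higher), 27 and 11 with the median (71.1%), 22 and 22 with quantile normalization (50%), and 97 and 9 with the positive control probes (91.5%). The median change of all 385 miRNAs moved from −0.04 to 0.47 without scaling, 0.25 with all probes, 0.014 with the median, 0 with quantiles and 0.14 with the control probes. Apart from quantiles, these scalings move all miRNAs above the floor on an array by a shared constant, so a miRNA's place relative to that median is nearly fixed by construction and checks nothing. Each alternative moved the median of all 385 upward, although quantiles moved some changes down. The 16 higher calls were above 0 in every scaling, and 36 of the 41 lower calls turned above 0 without scaling, the other 5 being miR-302c-3p, miR-3063-3p, miR-7661-3p, miR-7212-3p and miR-433-3p. For those 36 a lower call gives the level relative to the array's 75th percentile. For the other 5 the change stayed below 0 without scaling, though for miR-433-3p only at −0.049.

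**Figure D3:**
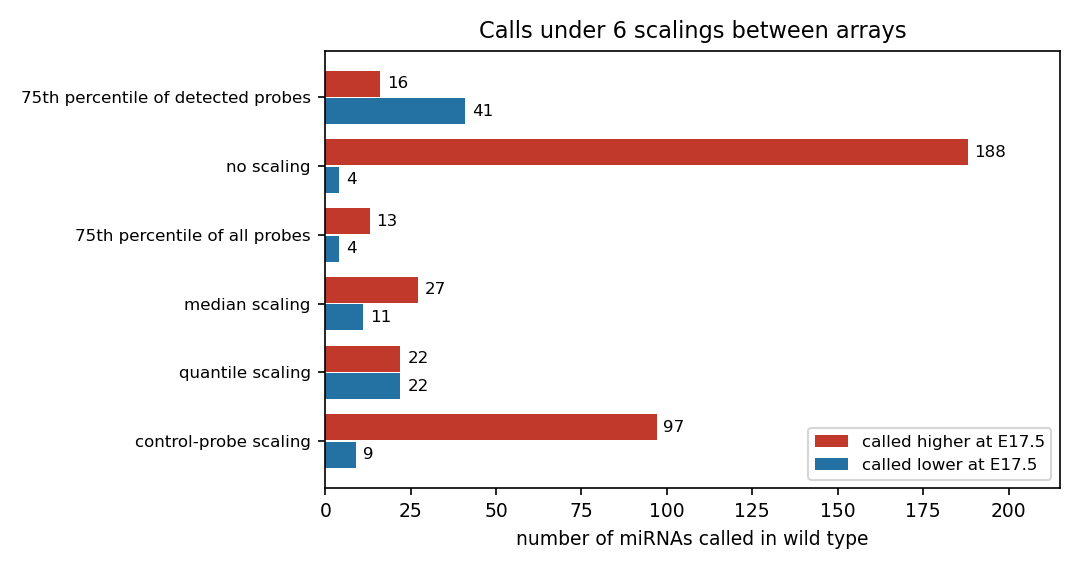
Number of miRNAs called higher and lower at E17.5 in wild type (limma, adjusted p under 0.05) under 6 ways of scaling between arrays, 2 bars per scaling. The number called higher runs from 13 to 188 and the number called lower from 4 to 41.

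The number of calls also depended on single arrays. Leaving out E17.5 replicate 2 left 2 higher and 6 lower calls, leaving out E17.5 replicate 1 left 6 and 13, and leaving out E16.5 replicate 2 left 4 and 18. Leaving out E16.5 replicate 1 gave 14 and 47. Without a cKO array the numbers were 10 and 26 (each E16.5 cKO array in turn), 11 and 20 (E17.5 cKO replicate 1) and 11 and 21 (E17.5 cKO replicate 2). One miRNA, miR-6997-5p, stayed called higher in all 8 of these fits, and 6 stayed called lower, namely miR-181b-5p, miR-298-5p, miR-302c-3p, miR-3063-3p, miR-7212-3p and miR-7661-3p.

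The largest increase was that of miR-6997-5p, whose hairpin lies within Sptan1, the gene of a spectrin of the cell cortex. Its signal was 64.5 and 55.6 units on the E16.5 arrays and 344 and 335 units on the E17.5 arrays. Both E17.5 arrays stood well above both E16.5 arrays. On the scaled log2 level it went from −2.62 and −2.35 to −0.55 and −0.64, a rise of 1.90 ± 0.112 (SE; 95% interval 1.61 to 2.18; limma adjusted p = 0.000881). Leaving out single arrays gave rises between 1.76 and 2.03, and it was called under all 6 scalings. Its signal on the cKO arrays was 66.4 and 58.4 units at E16.5 and 80.2 and 74.9 units at E17.5, a fitted change of −0.13 that was not called. The difference between the 2 stage changes was 2.02 (limma adjusted p = 0.00597). Its 3 probes all rose in wild type.

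miRNAs named miR-466, miR-467 and miR-669 made up 5 of the 16 increases. This group was picked out after its values were seen. Most of its members come from a large repeated cluster in the mouse genome, and the probes of many share long runs of G and T, so their separate values are uncertain. miR-466h-3p had 29.1 and 22.8 units at E16.5 and 61.9 and 67.5 units at E17.5, and miR-467f 33.1 and 28.3 against 71.7 and 76.6 units. The E17.5 arrays lay above the E16.5 arrays for both. The fitted rises were 0.72 ± 0.0895 for miR-466h-3p (adjusted p = 0.0128), 0.67 ± 0.111 for miR-467f (adjusted p = 0.025), 0.66 ± 0.0805 for miR-466q (adjusted p = 0.0128), 0.59 ± 0.0812 for miR-466f-3p (adjusted p = 0.0157) and 0.46 ± 0.0814 for miR-669p-3p (adjusted p = 0.0287), all ± SE from limma.

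These 5 were called under all 6 scalings, although only miR-467f was detected on all 4 wild-type arrays. miR-669p-3p has a probe that the files place at chr2:10410799-10410817 (mm9), 1 of 2 sites. Of 15 miRNAs with these names that were tested, 5 rose and 0 fell, with a median change of 0.04 beside −0.04 for all 385, of which 4.16% rose and 10.6% fell. Several members without a call lie at the floor, which sets their change to 0. The probe held GTGTGTGT (read 5′ to 3′ on the probe strand) in 9 of all 385 miRNAs tested (2.34%), each of them of this group, and all 5 that rose were among these 9, a run chosen after the values were seen. Leaving out E17.5 replicate 2 ended the call of miR-467f (change 0.80, adjusted p = 0.157).

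Other increases detected on all 4 wild-type arrays were smaller. miR-342-3p, which comes from an intron of Evl and is well known in white blood cells, had levels of −1.57 and −1.73 at E16.5 and −1.04 and −1.20 at E17.5, a rise of 0.53 ± 0.0892 (limma adjusted p = 0.025). miR-136-5p, from the imprinted cluster of chromosome 12, had −0.79 and −0.87 against −0.49 and −0.42, a rise of 0.37 ± 0.0553 (limma adjusted p = 0.0192). For both, each E17.5 array lay above each E16.5 array, and neither call held without E17.5 replicate 2 (adjusted p = 0.102 and 0.117).

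miR-221-3p, which lowers the cell-cycle inhibitor p27, rose by 0.25 ± 0.0493 (limma adjusted p = 0.0388), from −3.15 and −3.08 to −2.93 and −2.80, but its direction turned with modelled background (−0.13). let-7b-5p, a member of the family that restrains growth as tissues mature, rose by 0.17 ± 0.0388 (limma adjusted p = 0.0463), from 1.24 and 1.22 to 1.35 and 1.45. The remaining increases among those detected throughout were miR-193a-3p (0.24), miR-376b-5p (0.24), miR-411-5p (0.14), miR-152-3p (0.19) and miR-154-5p (0.18). miR-376b-5p turned to −0.15 with modelled background. The calls of let-7b-5p, miR-221-3p, miR-411-5p and miR-376b-5p were lost whichever cKO array was left out. Of all 11 increases detected on the 4 arrays, miR-6997-5p alone held its call without E17.5 replicate 2. miR-31-3p, from a hairpin induced in growing and wounded epidermis, had 20.2 and 14.4 units at E16.5 against 30.3 and 35.5 units at E17.5. It was at the floor on both E16.5 arrays and was tested only because it was detected at E17.5, so its fitted change of 0.28, one of the 16 higher calls, gives neither a size nor a spread for E16.5.

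**Figure D4:**
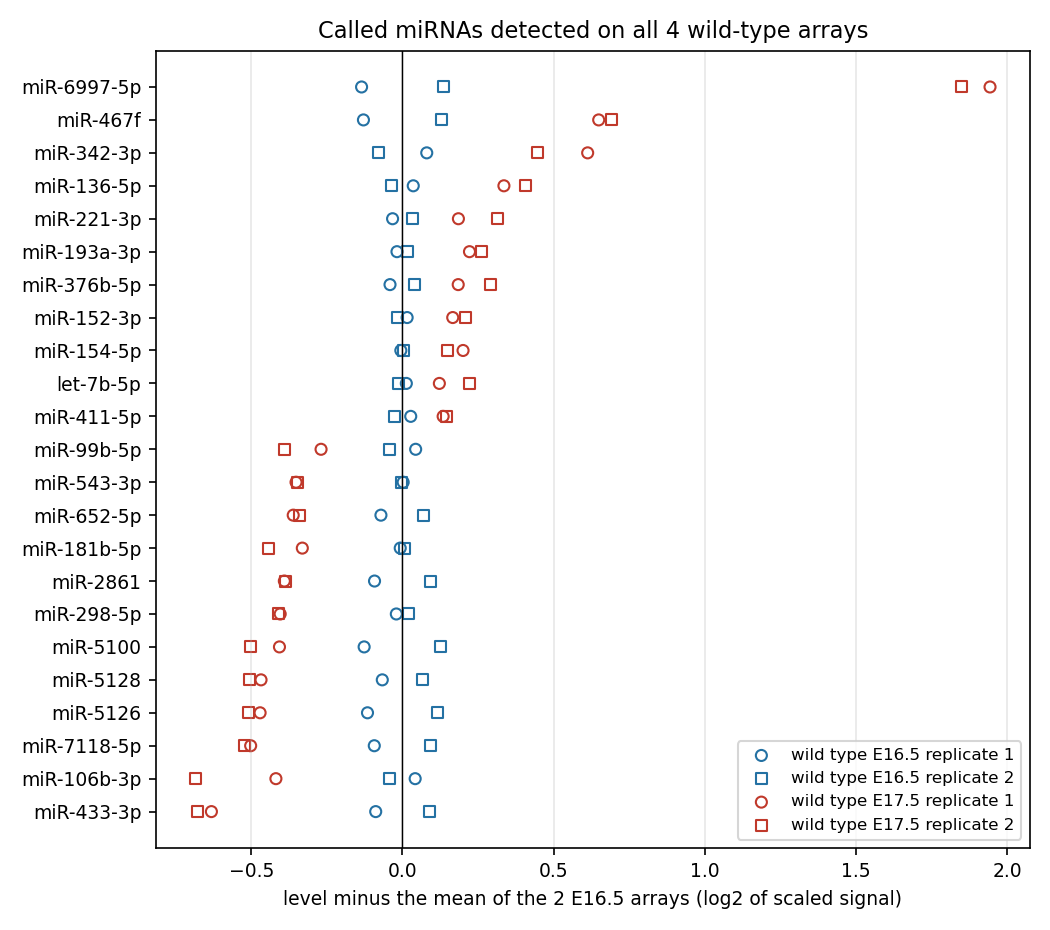
Level on each wild-type array minus the mean of the 2 E16.5 arrays (log2 of scaled signal) for the 11 miRNAs called higher and the 12 largest decreases among those called lower, all detected on the 4 wild-type arrays. The E17.5 points of each lie on 1 side of its E16.5 points, with miR-6997-5p near 1.9 and miR-433-3p near −0.66.

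The largest decreases went from detected to not detected. miR-302c-3p belongs to a cluster of pluripotent cells within Larp7, and its probe lies at chr3:127248327-127248345 (mm9, per the files). It had 64.7 and 50.2 units at E16.5 and 5.37 and 1.93 units at E17.5, and was not well above background on either E17.5 array. Its scaled level was thus at least 5.26-fold higher at E16.5. Its relatives miR-302a-3p, miR-302b-3p, miR-302d-3p and miR-367-3p were not detected on any wild-type array. miR-3063-3p, from a hairpin within Igf2bp1 (probe at chr11:95824672-95824685, mm9), had 83.5 and 51.2 units at E16.5 and 2.97 and 1.51 units at E17.5. On the scaled level it was at least 6.04-fold higher at E16.5.

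miR-7661-3p, from a hairpin within Itpr1, had 52.6 and 44.7 units at E16.5 and 2.99 and −0.98 units at E17.5. On the scaled level it was at least 4.48-fold higher at E16.5. Each E16.5 array stood above each E17.5 array for the 3 of them. A bound sets the dim stage at the lowest signal well above background on each array, or at its own signal where that was higher. The bounds were taken after scaling and hold for that scaling only, since the E17.5 arrays were brighter and were divided by more. The limma adjusted p was 0.000322 for miR-302c-3p and miR-3063-3p and 0.000849 for miR-7661-3p, but the E17.5 values sit at the floor, where their spread is 0 by construction. All 3 were called under each scaling. The fit used the higher floor of −4.24, against which the changes were −1.68 for miR-302c-3p, −1.88 for miR-3063-3p and −1.45 for miR-7661-3p, smaller than the bounds. Without scaling between arrays the fitted changes were −1.48, −1.68 and −1.25 in that order. The same 3 fell on the cKO arrays, with fitted changes of −2.18, −2.52 and −1.98 in that order.

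Among miRNAs detected on all 4 wild-type arrays the largest decrease was that of miR-433-3p, from the imprinted chromosome 12 cluster (probe at chr12:110830000-110830012, mm9). Its levels were −2.57 and −2.40 at E16.5 and −3.12 and −3.16 at E17.5, a change of −0.66 ± 0.0833 (limma adjusted p = 0.0128). Both E17.5 arrays lay below both E16.5 arrays, and its change was below 0 in all 6 scalings, nearest to 0 without scaling (−0.049). Without E17.5 replicate 1 or 2 it was no longer called, with an adjusted p of up to 0.103.

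The other 11 of the 12 largest decreases turned above 0 without scaling. miR-106b-3p, the minor arm of a hairpin within the replication gene Mcm7, had −3.29 and −3.37 at E16.5 and −3.75 and −4.02 at E17.5, a fitted change of −0.55 (limma adjusted p = 0.0287) that was 0.055 without scaling. Its major arm, miR-106b-5p, had a fitted change of −0.10 and was not called. miR-99b-5p, from a hairpin next to those of let-7e and miR-125a, had a fitted change of −0.33 (limma adjusted p = 0.025) that was 0.28 without scaling.

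A tight pair of decreases kept their call whichever array was left out. miR-181b-5p, a member of a family well known in lymphocytes, had levels of −0.40 and −0.38 at E16.5 and −0.72 and −0.83 at E17.5. Its change was −0.39 ± 0.0406 (limma adjusted p = 0.00963), with 0.22 without scaling. miR-298-5p, from an imprinted locus of chromosome 2 (probe at chr2:174093023-174093037, mm9), had −2.90 and −2.86 against −3.29 and −3.29, a change of −0.41 ± 0.0319 (limma adjusted p = 0.00305), with 0.20 without scaling. For each of the 2, both E17.5 arrays lay below both E16.5 arrays and the replicates lay close together.

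Of these 12 decreases 5 were miRNAs numbered above 1000 with 60.9% to 100% of G and C, namely miR-7118-5p (−0.51), miR-5126 (−0.49), miR-5128 (−0.49), miR-5100 (−0.46) and miR-2861 (−0.39). In signal, miR-5126 read 1407 and 1180.4 units at E16.5 and 1390.0 and 1406 units at E17.5, with the stages overlapping. All 5 turned above 0 without scaling, to between 0.094 and 0.22, and miR-5100 was at 0 with quantiles. Over the 107 tested miRNAs numbered 1000 or above, 1 rose and 10 fell, shares no larger than the 4.16% and 10.6% of all miRNAs tested, with a median change of −0.19 beside −0.04 for all 385. On the cKO arrays 1 rose and 58 fell, where 15.3% and 20.3% of all did, with a median of −0.41, and the wild-type median was 0.34 without scaling.

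miRNAs that share a seed were set side by side, in 28 families with 2 or more tested members. Among all miRNAs tested, 4.16% were called higher and 10.6% lower. In the miR-181 family (seed ACAUUCA), 3 of 4 members fell and the changes were −0.39 for miR-181b-5p, −0.25 for miR-181d-5p, −0.21 for miR-181c-5p and −0.16 for miR-181a-5p, the last not called. Without scaling the 3 called members turned to between 0.22 and 0.40. Over the 6 scalings miR-181b-5p was above 0 in 1, miR-181d-5p in 2 and miR-181c-5p in 3. In the miR-130 family (seed AGUGCAA) 1 of 4 fell, miR-130b-3p at −0.33 (0.28 without scaling and 0.049 with all probes), while the bright miR-130a-3p was at −0.05. In let-7 (seed GAGGUAG) 1 of 9 rose and 0 fell, with changes from −0.17 for miR-98-5p to 0.17 for let-7b-5p, and the summed share of the family was 2.33% and 1.89% of the signal at E16.5 and 2.64% and 2.73% at E17.5.

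The lists of cell types and pathways showed few calls, and each count reads against 4.16% called higher and 10.6% called lower among all miRNAs tested. Of 12 skin epithelium miRNAs 0 rose and 1 fell, miR-183-5p of the sensory and epithelial miR-183 cluster (−0.18, limma adjusted p = 0.0128), whose change was above 0 without scaling, with all probes and with the control probes. The median of the list was 0.12, against −0.04 for all 385. miR-203-3p went from 3.52 and 3.53 to 3.61 and 3.79, and miR-205-5p from 3.49 and 3.58 to 3.61 and 3.73. The E17.5 arrays lay above the E16.5 arrays for both, but the fitted changes, 0.18 (95% interval −0.25 to 0.60) and 0.14 (−0.21 to 0.48), were not called. These intervals use the spread within all 4 groups, the cKO arrays included.

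miR-200c-3p and miR-141-3p, which hold cells in the epithelial state, had fitted changes of 0.27 and 0.23, also not called. Of 10 keratinocyte miRNAs 0 rose and 0 fell, with a median of 0.05. miR-31-5p, which promotes keratinocyte growth, had the largest of these changes, 0.38, from −2.64 and −2.46 to −2.28 and −2.06, with the E17.5 arrays above the E16.5 arrays (limma adjusted p = 0.0755). In cKO, miR-31-5p was detected on 1 of 4 arrays and miR-31-3p on 0 of 4, so that no stage change could be measured there.

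Of 8 dermal mesenchyme miRNAs 1 rose and 1 fell, with a median of −0.12, which was 0.49 without scaling. miR-152-3p rose by 0.19 (limma adjusted p = 0.0206), and miR-214-3p had a change of −0.29 (limma adjusted p = 0.025), which turned above 0 without scaling and with all probes. miR-214-3p stood at 2.02 and 1.90 at E16.5 and 1.69 and 1.66 at E17.5, and without E17.5 replicate 2 its adjusted p was 0.157. Its arm partner miR-214-5p had a change of −0.27 and the neighbouring miR-199a-5p one of −0.13, neither called.

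A comparison within each array needs no scaling, except through the floor, which is applied after scaling. Members under the floor were raised to it, among them miR-183-5p on the cKO arrays, where it was not detected. The mean level of the epithelial list minus that of the mesenchymal list was −1.03 and −1.02 at E16.5 and −0.86 and −0.73 at E17.5, higher on both E17.5 arrays. The same difference for the muscle list was −0.86 and −0.81 against −0.54 and −0.57, for cartilage −2.73 and −2.77 against −2.28 and −2.45, and for let-7 0.62 and 0.59 against 0.72 and 0.79. The imprinted chromosome 12 list also lay higher on both E17.5 arrays, with −2.07 and −2.01 against −1.99 and −1.97. All 5 lists share the mesenchymal denominator, whose own median change was −0.12, so the pattern is not particular to any of them. For the miR-17 list it was −0.59 and −0.62 against −0.59 and −0.57, which is a difference no larger than that between replicates. On the cKO arrays the epithelial difference was −3.27 and −3.26 at E16.5 and −3.73 and −3.38 at E17.5, lower at the later stage.

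No muscle, cartilage or vessel miRNA passed the test. Of 5 muscle miRNAs 0 rose and 0 fell, and their median change was 0.15. miR-1a-3p, a miRNA of differentiated muscle, had the largest, 0.30, and the muscle-specific miR-206-3p had 0.19, from 1.76 and 1.74 to 1.98 and 1.92. Of 4 cartilage miRNAs 0 were called, and the arms miR-140-3p and miR-140-5p had changes of 0.54 and 0.51 with wide intervals (−0.67 to 1.74 and −0.58 to 1.61). The intervals take in the spread of the cKO arrays, where miR-140-3p read 641 and 228 units at E17.5. In wild type it read 260 and 150 units at E16.5 and 495 and 386 units at E17.5. For the 2 endothelial miRNAs the median was 0.17, with miR-126a-3p, which supports vessel integrity, at 0.22 (limma adjusted p = 0.0699).

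Red cell markers moved with single arrays. miR-451a of red cells stood at 1.84 and 1.21 at E16.5 and 1.73 and 2.01 at E17.5, so E16.5 replicate 2 was low and the stages overlapped. The summed share of the 4 red cell miRNAs was 0.279% and 0.162% at E16.5 and 0.292% and 0.357% at E17.5. Of 5 white blood cell miRNAs 1 rose, miR-342-3p, while miR-142a-3p and miR-223-3p had changes of 0.12 and 0.10, not called, and miR-150-5p and miR-155-5p were not detected on any wild-type array. The summed share of that list was 0.0684% and 0.0539% at E16.5 and 0.0898% and 0.0883% at E17.5. Whether blood content had a part in the change of miR-342-3p was not tested.

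The imprinted chromosome 12 cluster was the largest list and moved in both directions. Of the 43 tested members of the list 3 rose and 4 fell, with a median of −0.04, equal to that of all 385 to 2 decimals. The 3 that rose were miR-411-5p (0.14), miR-154-5p (0.18) and miR-136-5p (0.37). miR-376b-5p (0.24), also called higher, lies in the same cluster but was not on the list. miR-433-3p (−0.66), miR-543-3p (−0.35), miR-431-5p (−0.20) and miR-409-3p (−0.18) fell against the 75th percentile, and the last 3 were above 0 without scaling and with all probes. miR-136-5p, miR-433-3p and miR-431-5p lie at positions that overlap the gene Rtl1, strand not considered. On the cKO arrays 16 of the 43 were called higher and 2 lower, with a median of 0.16 (background in cKO 15.3% higher and 20.3% lower), and miR-431-5p was called in opposite directions in the 2 genotypes, at −0.20 in wild type and 0.16 in cKO. The test of its difference gave a limma adjusted p of 0.0625.

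Among the 7 tested miRNAs of other imprinted growth loci 0 rose and 1 fell, miR-298-5p, and the median was −0.26, which was 0.35 without scaling. miR-483-3p, which lies within the growth factor gene Igf2, had a change of −0.40 (limma adjusted p = 0.102), from −2.20 and −2.02 to −2.34 and −2.68. miR-675-3p, made from the H19 RNA, had −0.20 and was not called either.

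Of 10 miR-17 cluster miRNAs, which promote proliferation, 0 rose and 2 fell, with a median of −0.07. miR-92a-3p had levels of 0.65 and 0.72 at E16.5 and 0.45 and 0.40 at E17.5, a change of −0.26 ± 0.0306 (limma adjusted p = 0.0128), and miR-18a-5p a change of −0.22 (limma adjusted p = 0.0453). Both turned above 0 without scaling and with all probes, and miR-18a-5p with the control probes too. Of the hairpins beside that of miR-18a, miR-17-3p also fell (−0.21, limma adjusted p = 0.0311; 0.39 without scaling), miR-17-5p had −0.19 and was not called, and miR-19a-3p and miR-20a-5p had −0.01 and 0.01. The probe of miR-92a-3p matches 2 sites in the genome. Without E17.5 replicate 2, miR-92a-3p had an adjusted p of 0.102.

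The remaining lists held a single call or none. Of the miR-125, miR-99 and miR-100 list 1 of 5 fell, miR-99b-5p, while its seed mates miR-99a-5p and miR-100-5p had changes of 0.12 and 0.11. Of the nerve and glia list 1 of 4 fell, miR-128-3p (−0.30, limma adjusted p = 0.0453), which was above 0 without scaling and with all probes. The 8 miRNAs of the miR-15 and miR-16 family, the 5 of miR-30, the 3 of miR-29 and the 4 within the Hox clusters gave 0 calls, with medians of 0.01, −0.05, 0.01 and 0.14. miR-210-3p, which is induced by low oxygen, had 0.13 and was not called.

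**Figure D5:**
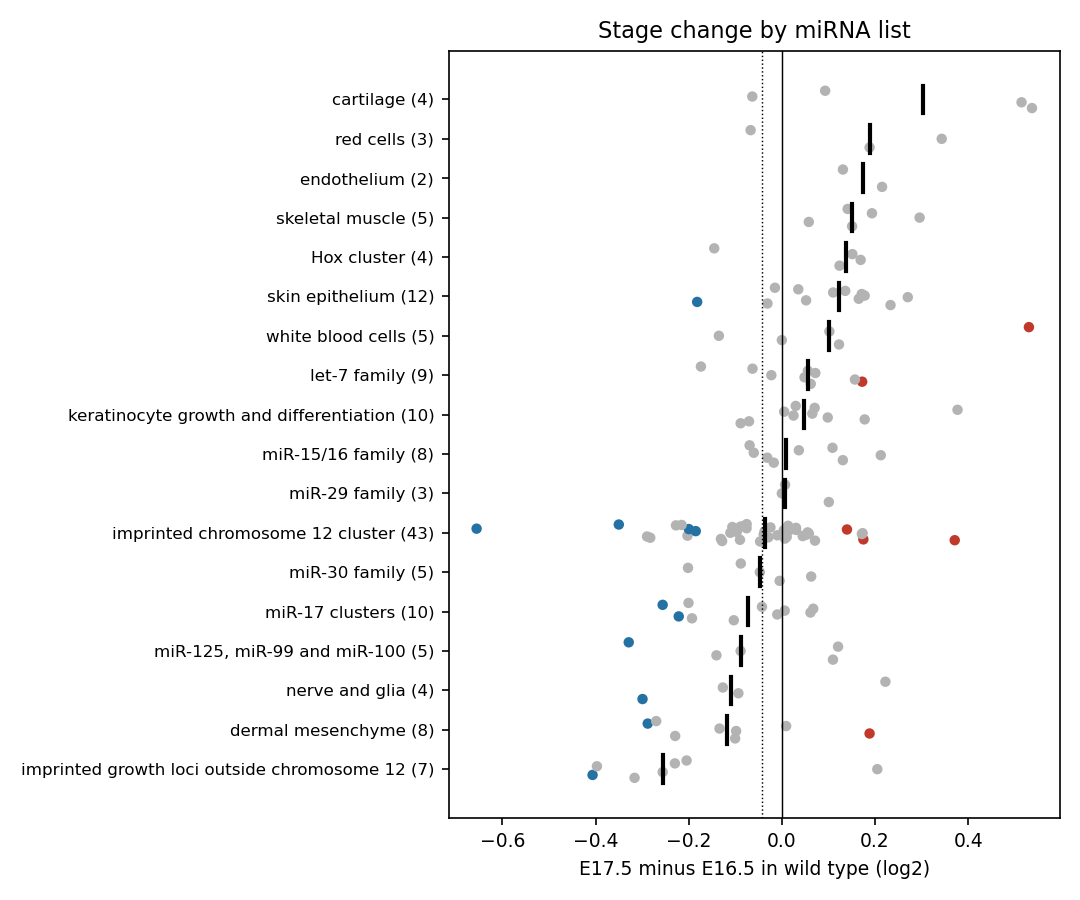
Fitted change from E16.5 to E17.5 in wild type (log2) for each tested member of 18 miRNA lists, the number tested in parentheses, with members called higher in red and lower in blue, the list median as a bar and the median of all 385 miRNAs as a dotted line. Cartilage has the highest median (0.30), and the imprinted growth loci outside chromosome 12 the lowest (−0.26).

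The stage change was also measured on the cKO arrays. The wild-type contrast is not fully separate from them. They enter the shared spread, the probes used for scaling, the floor, the choice of probe and the set of miRNAs tested. On the cKO arrays 59 miRNAs were called higher (15.3%) and 78 lower (20.3%). Of the 16 miRNAs that rose in wild type, 12 had a positive fitted change in cKO and 10 were called higher there, among them let-7b-5p, miR-136-5p, miR-152-3p and miR-193a-3p. Of the 41 that fell, 32 had a negative change in cKO and 16 were called lower. The stage changes of the 2 genotypes differed for 6 of 385 miRNAs (1.56%), with miR-6997-5p the largest, while 107 had an unadjusted p under 0.05. A call in wild type without one in cKO does not by itself show a difference, and for miR-342-3p, with 0.53 in wild type and −0.06 in cKO, the test of the difference gave a limma adjusted p of 0.0748.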

How the data were processed

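Whole footpad skin of 3 to 5 embryos per pool was read on 8 single-colour Agilent mouse miRNA arrays of 1 slide (56430 mouse miRNA spots and 4415 probes per array). Per the file headers the images were read by Agilent's Feature Extraction software, version 11.5.1.1, and the authors deposited the background-subtracted intensity of each spot on a linear scale, not scaled between arrays. The deposited series values equal that intensity within 0.02 in 100% of spots above 0 and served as an alternative. No spot was saturated (0 spots), and between 2.84% and 6.02% were marked as outliers and not used. From the deposited intensities, spots of a probe were averaged, each array was divided by its 75th percentile over 474 probes detected on all 8 arrays, values under the floor were raised to it, and log2 was taken. Each of 1881 miRNAs was represented by its brightest probe. The fit took the 385 miRNAs detected throughout 1 or more groups and was made with limma 3.58.1 in R 4.3.3 (4 group means, eBayes with trend, 4 residual and 1.08 prior degrees of freedom), with p-values adjusted by Benjamini-Hochberg over all 385 at 0.05. Other tools were data.table (version 1.17.8), pandas 2.3.3 and matplotlib 3.10.9 in Python 3.11.15. The steps were tested on simulated data. The number of arrays limits the precision.

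The members, the 21 lists and the rules were chosen with earlier results of these data known. Named were the 15 brightest miRNAs, the 12 largest increases and decreases among called miRNAs detected on all 4 wild-type arrays without overlap between stages, up to 5 bounds in each direction, list members, the 5 largest differences between genotypes, and the other arm of a named hairpin. miRNAs outside this rule (those named miR-466 and miR-669, miR-31-3p, and single members beside a named one) were chosen after their values were seen. Gene overlaps of hairpins are those of RefSeq on GRCm38.p6, and probe positions are the files' own on mm9. Same-numbered arrays correlated in their deviations at between −0.141 and 0.275 over pairs of groups, so replicate numbers were not taken as pairs.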

Additional observations from a re-analysis of the deposited data

Results flagged for a closer look

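The stage change differed between wild type and cKO for 6 miRNAs (limma, test of the difference, Benjamini-Hochberg adjusted p under 0.05), given as the change in wild type minus that in cKO on the log2 scale. For miR-6997-5p the difference was 2.02 (adjusted p = 0.00597), with 1.90 in wild type and −0.13 in cKO.

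Of the 6, 3 had a negative difference. miR-298-5p differed by −0.399 (adjusted p = 0.0218), with −0.41 in wild type and −0.01 in cKO. miR-324-5p, from a hairpin that overlaps Acadvl, differed by −0.373 (adjusted p = 0.049), with −0.27 and 0.11. miR-33-5p, from an intron of the lipid regulator Srebf2, differed by −0.203 (adjusted p = 0.0218), with −0.15 and 0.05, was detected on 3 of 4 wild-type arrays, and was at the floor on both cKO E16.5 arrays, where the spread is 0 by construction.

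The last 2 rest on values at the floor as well. miR-7212-3p differed by 0.593 (adjusted p = 0.000149), with −0.31 in wild type and −0.90 in cKO. miR-149-3p differed by 0.446 (adjusted p = 0.00057), with −0.07 and −0.51. Both were at the floor on both wild-type E17.5 arrays, and miR-7212-3p on both cKO E17.5 arrays too. The p-values of these 2 and of miR-33-5p leave out the spread that the floor removed.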

How the results depend on the processing

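With 2 arrays a stage, 1.08 prior degrees of freedom and a floor that removes the spread of dim miRNAs, few calls are secure, and signal near the floor carries no order. Named miRNAs and the set of the 15 brightest were followed through 1685 alternative values. Of these, 1206 kept direction and side of the threshold or, for the 15 brightest, kept most of the same members. Higher calls in wild type (16) were 188 without scaling, 27 with the median, 97 with control probes, 0 with the wild-type arrays alone (limma, 30 at an unadjusted p under 0.05), 1 at adjusted p under 0.01, and 2 to 14 with 1 array left out. Lower calls (41) were 4 without scaling, 4 with all probes, 11 with the median, 22 with quantiles, 9 with control probes, 143 with modelled background, 64 without a common floor, 5 with the wild-type arrays alone, 7 at 0.01, and 6 to 47 with 1 array left out. Differences between genotypes (6) were 2 without scaling, 0 with all probes (limma, 26 at an unadjusted p under 0.05), 3 with the median, 24 with quantiles, 20 with control probes, 3 without a filter, 1 among miRNAs detected on all arrays, 1 without a common floor, 13 with the mean of probes, 3 at 0.01, and 4 to 42 with 1 array left out. Stage calls in cKO (137) were 28 without scaling, 8 with all probes, 9 at 0.01, and 33 to 140 with 1 array left out. The share of the 5 brightest (78.6%) was 65.0% with modelled background and 77.5% to 79.3% with 1 array left out. The 2 alternatives chosen after seeing the data, calls only among miRNAs above the floor and only among those detected on all 4 wild-type arrays, gave 15 and 11 higher and 35 and 32 lower. The replicate block gave 18 higher and 29 lower calls in wild type, 6 differences and 123 calls in cKO. The cause was not tested beyond what each alternative's construction shows.

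Among the named miRNAs followed, changes called in either setting turned direction as follows. Without scaling the change was 0.055 for miR-106b-3p, 0.31 for miR-128-3p, 0.36 for miR-146a-5p, 0.21 for miR-149-3p, 0.22 for miR-181b-5p, 0.42 for miR-183-5p, 0.38 for miR-18a-5p, 0.32 for miR-214-3p, 0.22 for miR-2861, 0.20 for miR-298-5p, 0.34 for miR-324-5p, 0.40 for miR-3968, 0.42 for miR-409-3p, 0.41 for miR-431-5p, 0.15 for miR-5100, 0.12 for miR-5126, 0.12 for miR-5128, 0.26 for miR-543-3p, 0.26 for miR-652-5p, 0.094 for miR-7118-5p, 0.35 for miR-92a-3p and 0.28 for miR-99b-5p. With the 75th percentile of all probes it was 0.076 for miR-128-3p, 0.077 for miR-149-3p, 0.19 for miR-183-5p, 0.15 for miR-18a-5p, 0.087 for miR-214-3p, 0.11 for miR-324-5p, 0.19 for miR-409-3p, 0.18 for miR-431-5p, 0.025 for miR-543-3p, 0.025 for miR-652-5p, 0.12 for miR-92a-3p and 0.046 for miR-99b-5p. With control probes it was 0.020 for miR-149-3p, 0.055 for miR-183-5p, 0.015 for miR-18a-5p, 0.052 for miR-409-3p and 0.037 for miR-431-5p. With modelled background it was −0.25 for miR-126a-5p, −0.13 for miR-221-3p and −0.15 for miR-376b-5p, and with quantiles it was 0 for miR-5100. Without scaling, changes that were not called also turned, to 0.21 for miR-483-3p, 0.34 for miR-214-5p, 0.43 for miR-98-5p and 0.23 for miR-6366, and so did the call of miR-130b-3p, to 0.28.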

Other observations

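The arms of a hairpin come from 1 precursor, and 49 hairpins had both arms tested. In 27 of the 49 the arms changed in the same direction, where an arm whose change the floor sets to 0 counts as no match. In 28 of them both arms were detected on all 4 wild-type arrays, and in 19 of these the arms changed in the same direction. Of all 385 changes 129 were above 0 and 226 below, so unrelated miRNAs often share a sign too, and the counts were not tested. Of 17 hairpins with a called arm, 2 had both arms called, miR-351 and miR-652, lower on each arm, although all 4 of these miRNAs lay above 0 without scaling and with all probes. miR-652-5p had a change of −0.35 and miR-652-3p one of −0.26. miR-154 had arms with opposite signs, 0.18 on the 5′ arm and −0.09 on the 3′ arm. miR-335, of an imprinted locus, had 0.21 on the 5′ arm and −0.26 on the 3′ arm, neither called.

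Neighbouring hairpins were grouped where they lay within 10 kb. Their counts read against 4.16% called higher and 10.6% called lower among all miRNAs tested. In the miR-106b cluster 4 mature miRNAs were tested, 1 was called lower, none had a positive change and the median was −0.15. The called miRNA, miR-106b-3p, was at 0.055 without scaling. In the X-linked cluster of miR-188, miR-362, miR-500 and miR-532, within Clcn5, 2 of 5 were called lower, with a median of −0.23. Both, miR-188-5p and miR-500-3p, were above 0 without scaling, at 0.37 and 0.46. In the X-linked cluster of miR-322, miR-450, miR-503 and miR-542 none of 7 was called, with a median of 0.

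The 3 brightest miRNAs after miR-6366 share letters, which was seen after the ranking. The run AUCCCA, searched on the RNA strand of the mature sequences only, occurs in 3 of the 332 tested miRNAs with a sequence (0.904%), and these are miR-3963, miR-3968 and miR-5100. The median content of G and C was 47.6% in the sequences of miRNAs called higher, 57.1% in those called lower and 50% in the rest.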
